A study of Mus musculus with 15 samples.

Results

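The sham baseline of this series is the RNA of left-ventricular cardiomyocytes from mice that were handled but not given the proton beam, measured on the 3 arrays whose titles name sham: day 1 replicate 1, day 1 replicate 2 and 1 array of day 3. They are 3 of 15 arrays. The other 12 are from mice whose whole bodies received 90 cGy of protons at 1 GeV, 2 of day 1, 3 of day 3, 3 of day 5, 2 of day 12 and 2 of day 26 after exposure. All groups were male C57Bl/6NT mice aged 8 to 9 months. The labels give no dose for sham, no replicate number for the sham array of day 3. They leave unstated which arrays share a mouse. P-values therefore measure the spread between these samples, which may be technical, and the day and the array cannot be told apart for sham day 3. Hearts were cannulated at the aorta and digested with collagenase, and the cells were returned to calcium in steps. The labels state that over 90% of the cells were calcium-tolerant cardiomyocytes and that inflammatory and endothelial cells could be present. Each preparation is bulk RNA, so fewer cells of a type and less RNA per cell cannot be told apart.

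Ventricular cardiomyocytes shorten when calcium, released from the sarcoplasmic reticulum through the ryanodine receptor, lets myosin heads of the thick filament pull on the actin of the thin filament, and they relax when the calcium pump takes it back. The work is paid for mainly by oxidation of fatty acids in densely packed mitochondria. The adult mouse ventricle is known for alpha myosin heavy chain, ventricular light chains, cardiac troponin I and the heart forms of the respiratory subunits. Around the myocytes lie endothelium, fibroblasts, mural cells and macrophages, with the mesothelium of the epicardium on the outside. These cells outnumber myocytes in the intact heart, and enzymatic isolation is meant to leave most of them behind.

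The arrays were Affymetrix Mouse Gene 1.0 ST, and all values are log2 signals as deposited. Each of 19937 genes was represented by 1 probe set, the one with the highest mean over all 15 arrays. The signal of a probe set also depends on its probes, so the order of genes given here is an order of signals, not of transcript numbers. No detection calls were used. As an empirical low level, the 1194 olfactory and vomeronasal receptor genes, which belong to sensory neurons, had a median sham signal of 3.25 and a 95th percentile of 4.87. That 95th percentile is called the receptor level, and 12638 of 19937 genes (63.4%) lay above it. The medians of the 3 sham arrays were between 4.99 and 5.04. Precision is limited by having 3 sham arrays. The labelled sex matched the signals: Eif2s3y had a sham mean of 7.96 and Uty 7.49, against 3.85 for Xist.

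Muscle and mitochondrial genes made up most of the highest signals. Actc1, cardiac alpha actin of the thin filament, was at the top. It read 12.66 and 12.63 in the day 1 arrays and 12.70 at day 3, a mean of 12.66 ± 0.04 (SD, n = 3). Of the 30 genes with the highest sham mean, 16 were in one of the lists of cardiomyocyte genes and 9 in a list of energy metabolism, 22 in either. These 30 lay between 11.87 and 12.66. The widest range among the 3 sham arrays within them was 0.22, for Tpm1, tropomyosin 1. Counted over the 200 highest genes, 35 were in cardiomyocyte lists, 68 in metabolism lists and 99 in either. Desmin (Des), an intermediate filament gene of all muscle that is also a mural cell marker, was the 1 gene of the 200 in a list of other heart cells.

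The sarcomere lists held 33 genes, of which 32 were measured. Of these, 31 lay above the receptor level, 29 in the top 10% of all genes and 18 in the top 1%, a class that holds 0.998% of genes. Their median percentile was 99.37.

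All 8 thin filament genes were in the top 10%, with a median percentile of 99.87. Troponin T (Tnnt2), which ties the calcium switch to tropomyosin, read 12.36, 12.33 and 12.38 in day 1 replicate 1, day 1 replicate 2 and day 3, the order kept throughout. Troponin I (Tnni3), the inhibitory subunit, read 12.32, 12.28 and 12.31. Both differed among the arrays by less than 0.25, as did 48.5% of the 12102 genes past the signal filter. Nebl, the nebulette of the Z-disc and thin filament, was the lowest of this list with a mean of 9.59.

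In the thick filament, Myh6, the alpha myosin heavy chain, read 11.86, 11.93 and 11.93. Myl2, the regulatory ventricular light chain, read 12.01, 11.95 and 12.05. Myl3, the essential ventricular light chain, read 11.97, 11.96 and 12.03. These 3 motor genes therefore stood close together in every sham array. The list median was at percentile 98.83, and its lowest member was Mybphl, a myosin binding protein-H-like gene, at 4.72, below the receptor level. Of 15 measured genes of titin, Z-disc and costamere, 14 lay in the top 10%. Myoz2, a calcineurin-binding Z-disc protein, was highest with a mean of 11.61 ± 0.08 (SD, n = 3), and Synpo2l lowest at 8.34. Ttn, the giant spring of the sarcomere, read 10.72, 11.32 and 11.17 and so was lower in day 1 replicate 1 than in the other 2.

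Promoters of 3 sarcomere genes are printed here because they carry a CArG box, the site through which serum response factor acts on many muscle genes, and because these genes are respectively the highest signal (Actc1), a steady ventricular light chain (Myl3) and an atrial light chain that varied among the sham arrays (Myl7, values further on). Each is the 150 bases before the transcription start in RefSeq, build GRCm38.p6, on the gene's own strand, 5′ to 3′, with the CArG box in capitals. Actc1 is at chr2:114052876-114053025 on the minus strand, with the box starting 47 bases before the start site. Myl3 is at chr9:110763528-110763677 on the plus strand, 85 bases before. Myl7 is at chr11:5898783-5898932 on the minus strand, 61 bases before.
Actc1: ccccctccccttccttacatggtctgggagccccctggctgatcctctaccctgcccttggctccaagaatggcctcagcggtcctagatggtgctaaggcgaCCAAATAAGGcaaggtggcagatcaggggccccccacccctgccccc
Myl3: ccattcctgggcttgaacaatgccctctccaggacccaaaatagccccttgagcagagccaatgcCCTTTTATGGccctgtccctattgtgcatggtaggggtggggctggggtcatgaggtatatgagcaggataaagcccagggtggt
Myl7: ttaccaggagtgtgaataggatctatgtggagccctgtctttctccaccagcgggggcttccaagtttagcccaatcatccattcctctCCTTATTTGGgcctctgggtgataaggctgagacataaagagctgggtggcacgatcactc
Both strands were searched, and a CArG box reads as a CArG box on either strand. It was found in 5 of the 27 sarcomere-list genes that had a promoter in the table (18.5%): Actc1, Dmd, Ldb3, Myl3 and Myom1. It was found in 1.04% of all 27025 genes of the table. A match of letters is a description of the window and not a shown binding site.

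Of 17 calcium-handling genes, 15 were above the receptor level and 14 in the top 10%, with a median percentile of 96.55. Phospholamban (Pln), the brake on the calcium pump, was the fourth highest gene of the array and read 12.34, 12.36 and 12.37. The pump itself, Atp2a2 (SERCA2), read 12.29, 12.31 and 12.26. The release channel Ryr2 had a mean of 11.00 and the reticulum's calcium buffer Casq2 one of 11.09. The release and uptake genes were thus in the top group together. The 2 below the receptor level were Cacnb2, a subunit of the L-type calcium channel, at 4.24, and Fkbp1b, a ryanodine receptor partner, at 4.56.

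Ion channel genes gave lower signals than the contractile ones. Of 20 listed, 16 were measured, all 16 lay above the receptor level, and 5 were in the top 10%, a class that holds 10% of genes. The highest were Fxyd1 (phospholemman, a regulator of the sodium pump) at 11.15, the gap junction gene Gja1 at 10.76, and Abcc9, a subunit of the ATP-sensitive potassium channel, at 9.95. The lowest were the potassium channel Kcna5 at 5.42, the accessory subunit Kcne1 at 5.96 and the pacemaker channel Hcn4 at 6.33. Kcnd2, of the transient outward current, read 7.73, 7.46 and 8.22.

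All 20 cardiac transcription factors and coactivators were above the receptor level and 9 were in the top 10%. Ppargc1a, a coactivator of mitochondrial genes, led with 10.20, followed by Tbx20 at 9.84 and Mef2a at 9.81. The core cardiac factors Nkx2-5 and Gata4 had means of 9.04 and 8.61. Hand1, a factor of the embryonic left ventricle, was lowest at 5.01. Hey2, a Notch target of the ventricle, read 6.14, 5.77 and 6.75.

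The hormone, atrial and foetal genes ranged widely. Nppb, brain natriuretic peptide, read 11.47, 11.48 and 11.21. Nppa, atrial natriuretic peptide, read 10.20, 10.30 and 10.41, against a lowest of 9.22, a median of 10.34 and a highest of 11.30 in the 12 proton arrays. Acta1, skeletal alpha actin, read 10.32, 10.27 and 10.92, highest at day 3. Nppa in sham thus lay within its range in the proton arrays.

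Energy genes stood beside the contractile ones in rank. The 9 genes of energy buffering and oxygen store (Mb, Ckm, Ckmt2, Ak1, Slc25a4, Fabp3, Cox6a2, Cox7a1 and Cox8b: myoglobin, creatine and adenylate kinases, a nucleotide carrier, a fatty acid binding protein and muscle forms of cytochrome oxidase subunits) were all in the top 1%. Myoglobin (Mb), the oxygen store of muscle, read 12.32, 12.28 and 12.32. Ak1, an adenylate kinase, was the lowest of the 9 with 10.85. Of 18 measured fatty acid oxidation genes 17 were in the top 10%, of 20 citric acid cycle genes all 20, of 35 complex I genes 33, and of 33 genes of complexes III to V all 33. Their median percentiles were 98.66, 99.04, 98.96 and 99.64. Within them the lowest signals were those of Mlycd (malonyl-CoA decarboxylase) at 7.62, Pdhx (a pyruvate dehydrogenase component) at 8.81, Ndufv3 at 7.76 and Uqcrfs1 (the Rieske protein of complex III) at 9.66. Of 16 glycolysis genes 13 were in the top 10%, led by aldolase A (Aldoa) at 12.04 and muscle enolase (Eno3) at 11.86. In the mitochondrial genome, ND3 had a mean of 12.40 and COX2 one of 11.98.

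Several of the highest signals come from genes with many near-identical copies and are uncertain. Rn7sk, the 7SK small nuclear RNA, had 12.53 and Fth1, ferritin heavy chain, 12.00. Rps6, a ribosomal protein, had a mean of 11.97 in the probe set used, while the lowest of its 7 probe sets read 4.52, 4.83 and 3.43. Atp5g1, a subunit of the ATP synthase ring, had 12.32 in the probe set used and 6.64, 6.18 and 6.98 in the other. For Rps6 and Atp5g1 the probe sets disagreed, and the highest one was taken by rule.

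**Figure D1:**
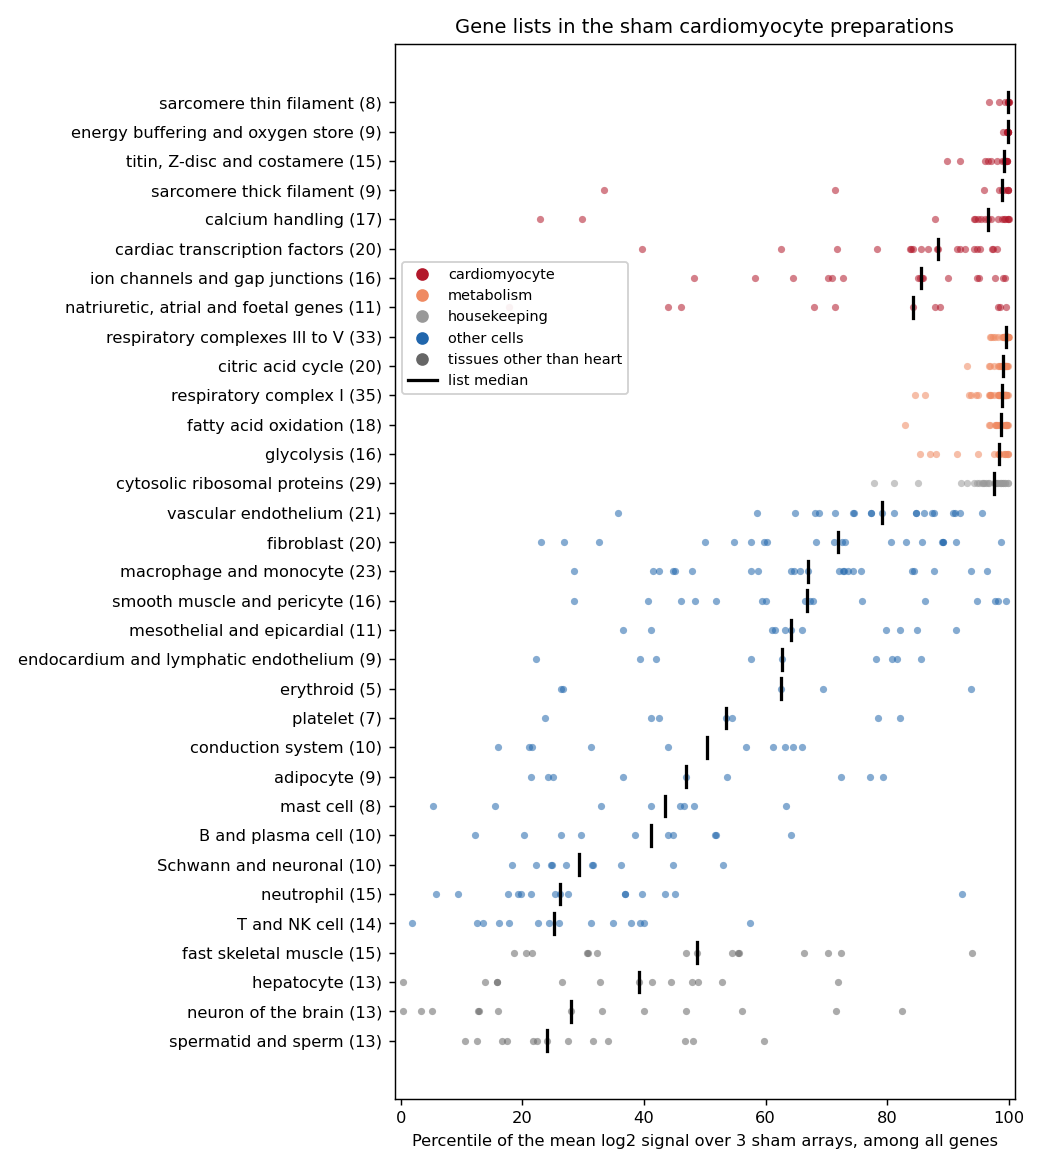
Each point is a gene, placed on the x axis by the percentile of its mean log2 signal over the 3 sham arrays among all 19937 genes; rows are gene lists with the number of measured members in brackets, colours are classes of lists, and the black bar is the list median. The sarcomere and oxidative lists crowd at the right edge, while medians of the other heart cells run from 25.1 for T and NK cells to 79.1 for endothelium.

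A set of paired genes compares the form known for the adult ventricle with a form of atrium, foetal heart, skeletal muscle or other tissue. Of 22 pairs, 21 had both genes measured, and the ventricular form had the higher signal in all 3 sham arrays in 20. The median difference was 3.88 log2 units. Since the 2 genes of a pair have different probes, the difference is between signals and is not a ratio of transcripts. Myh6 had 11.91 ± 0.04 (SD, n = 3) against 6.78 ± 0.30 for Myh7, the beta myosin heavy chain of the foetal ventricle, a difference of 5.13. Atp2a2 exceeded the fast skeletal pump Atp2a1 by 5.45. Tnni3 exceeded the slow skeletal and foetal Tnni1 by 7.01. For actin the difference was smaller, and Actc1 exceeded Acta1 by 2.16.

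In the light chains, Myl2 exceeded the atrial Myl7 by a mean of 5.46. Myl3 exceeded the atrial Myl4 by 2.79, 5.34 and 3.52, so this difference was not the same in the 3 arrays. Among metabolic pairs, the differences were smaller. Cox6a2 exceeded Cox6a1 by 3.33, the muscle creatine kinase Ckm exceeded the brain form Ckb by 3.11, the insulin-dependent glucose carrier Slc2a4 exceeded Slc2a1 by 1.92, and the nucleotide carrier Slc25a4 exceeded Slc25a5 by 0.37. Lactate dehydrogenase went the other way. Ldhb, the heart form, had 11.20 and lay below Ldha, at 11.47, by 0.29, 0.23 and 0.29. The other form lay above the receptor level in 18 of the 21 pairs, the exceptions being the fast skeletal troponin Tnnc2 at 4.13, the atrial pump regulator sarcolipin (Sln) at 3.96 and the skeletal release channel Ryr1 at 4.66. For these 3 no difference from Tnnc1, Pln and Ryr2 is given.

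**Figure D2:**
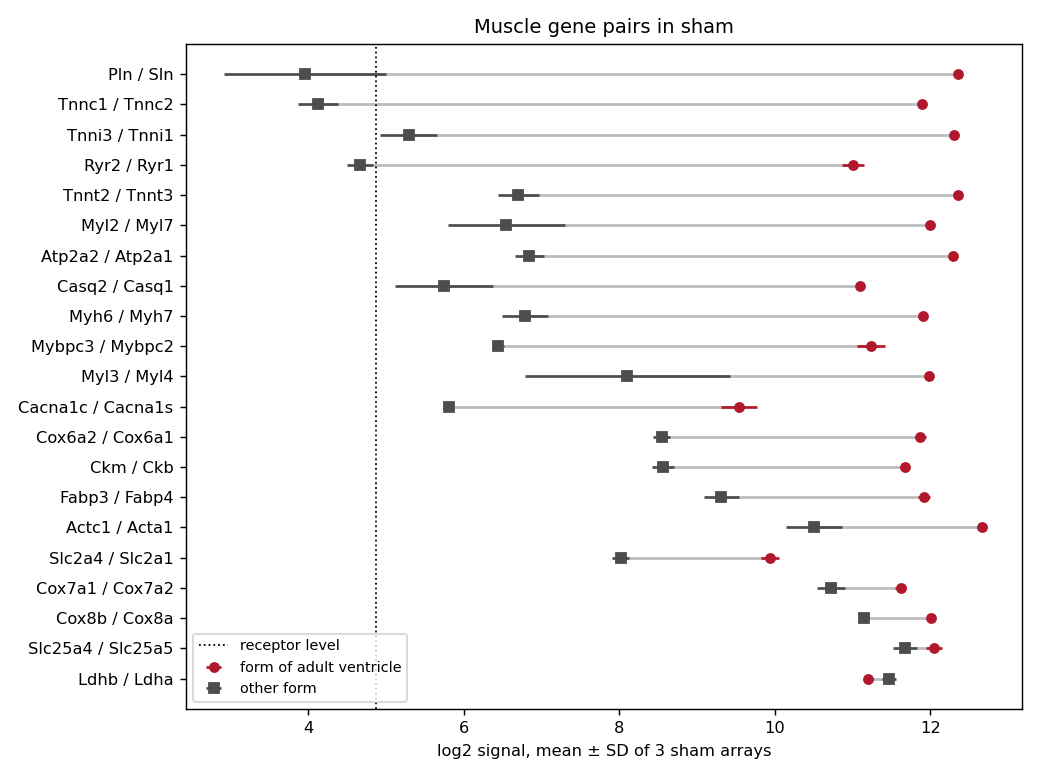
For 21 gene pairs, the x axis gives the log2 signal as the mean of 3 sham arrays with SD bars, red circles for the form of adult ventricle and dark squares for the other form, sorted by difference; the dotted line is the receptor level of 4.87. The squares of Sln, Tnnc2 and Ryr1 lie left of the dotted line, so the lengths of those 3 lines are not measured differences, and Ldhb over Ldha at the bottom is the pair with the reverse order.

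Markers of other heart cells gave lower signals than cardiomyocyte genes and most lay above the receptor level, as did 63.4% of all genes. Of 206 listed, 188 were measured, 136 lay above that level, 15 in the top 10% and 1 in the top 1%, with a median percentile of 57.08. Of these, 5 genes (Des, Abcc9, Prox1, Hcn4 and Gja5) are also in a cardiomyocyte list. Over the other 183, none was in the top 1%, 13 were in the top 10%, and the median percentile was 54.8.

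Endothelium had the highest median of these lists, at percentile 79.1, with 20 of 21 markers above the receptor level. Fabp4, a fatty acid binding protein of capillaries, read 9.14, 9.57 and 9.23. Cdh5, the adhesion molecule of endothelial junctions, read 8.41, 8.81 and 8.63. Both were highest in day 1 replicate 2. The arterial factor Sox17 was the lowest at 4.83. Lyve1, of lymphatic endothelium and resident macrophages, read 7.60, 8.02 and 6.91.

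Fibroblast markers had a median percentile of 72.0, with 17 of 20 above the receptor level. Decorin (Dcn), a matrix proteoglycan, read 10.60, 10.78 and 10.34, above 98.7% of genes and the highest of the fibroblast markers. Col1a1, the main fibrillar collagen, had 6.57, and the fibroblast factor Tcf21 had 4.68, below the receptor level. Among mural cell markers, 15 of 16 lay above the receptor level. Acta2, smooth muscle actin, read 10.47, 10.06 and 10.22, and the pericyte gene Rgs5 had 9.12. The contractile smooth muscle genes Myh11, Tagln and Cnn1 had 5.31, 5.43 and 4.49. The list therefore held genes from both ends of the signal range.

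Of 23 macrophage and monocyte markers, 22 were above the receptor level. Lysozyme (Lyz2) read 9.63, 9.998 and 8.95, the complement gene C1qb had a mean of 8.94, and Ccr2, the receptor of recruited monocytes, 4.50. Itgam, an integrin of myeloid cells, read 5.72, 5.75 and 4.29. In both genes read by array, day 3 was lowest. Lymphoid, neutrophil and glial markers had the lowest median percentiles of the lists of other heart cells, and these numbers exceeded the receptor level: 4 of 14 T and NK cell markers, 6 of 15 neutrophil markers, 6 of 10 B cell markers and 2 of 10 Schwann cell markers. Cd3e, of the T cell receptor complex, was the highest T and NK marker at 5.91. Adipoq, the adipocyte hormone, had 4.17. Of the 10 conduction system markers, 6 exceeded the receptor level. For tissues other than heart, 7 of 13 hepatocyte genes, 5 of 13 genes of brain neurons and 3 of 13 sperm genes did so. Alb, the main product of hepatocytes, had 3.85. The receptor level is therefore not a detection call.

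All 11 mesothelial and epicardial markers lay above the receptor level. Upk3b, a membrane protein of mesothelium, read 8.60, 9.07 and 7.88. Msln, mesothelin, read 7.75, 7.94 and 6.93. Both were highest in day 1 replicate 2 and lowest at day 3, as were the other 9 markers of the list.

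The 3 sham arrays were close to each other over most genes. Across the 12102 genes with a mean over all arrays above the median of all probe sets (5.00), Spearman correlations between sham arrays were 0.977 for the 2 day 1 arrays, 0.979 for day 1 replicate 1 and day 3, and 0.967 for day 1 replicate 2 and day 3. These are correlations across genes, which are not independent replicates. The 36 pairs of a sham and a proton array ran from 0.928 to 0.981. The median range, highest minus lowest of the 3 sham values, was 0.26 log2 units. A range of at least 1, a 2-fold difference, was found in 178 genes (1.47%), and of at least 2 in 18. Because the filter uses the mean over all arrays, a gene low in sham can pass it through the proton arrays. Both counts therefore include genes with a sham mean below the receptor level of 4.87, such as Bpifb1 (4.71) and Ltf (4.45). Ranges at such low signals carry little information. The 3 proton arrays of day 3 gave a median range of 0.32 and 846 genes (6.99%) with at least 1. Among these 3, replicates 1 and 2 had a Spearman correlation of 0.974, and replicate 3 had 0.922 and 0.940 with them. Over the 9 pairs of arrays of the same proton day the median correlation was 0.977, and over the 3 sham pairs it was also 0.977. Of the 178 genes, 103 were also among those 846, which is 57.9% of the first and 12.2% of the second. The count rested on particular arrays: it was 48 without day 1 replicate 2 and 51 without day 3, where a difference of 2 arrays replaces the range of 3.

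Higher signals had smaller ranges. Genes at the 40th to 60th percentile of sham signal had a median range of 0.30, those at the 90th to 99th 0.21, and the 199 genes of the top 1% had 0.14, with none at 1 or more. Genes past the filter but under the 40th percentile in sham, such as Bpifb1 and Ltf, are not part of this comparison. They do enter the counts by class and by array that follow. Among gene classes past the filter, a range of at least 1 was found in 2 of 99 cardiomyocyte-list genes, 0 of 122 metabolism genes and 21 of 138 markers of other cells (15.2%). The 2 cardiomyocyte-list genes were the atrial light chains Myl4 and Myl7. Of the 178 genes, 115 were highest in day 1 replicate 2, 45 at day 3 and 18 in day 1 replicate 1, while 41.9%, 33.2% and 24.9% of all 12102 genes were highest in these arrays.

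**Figure D3:**
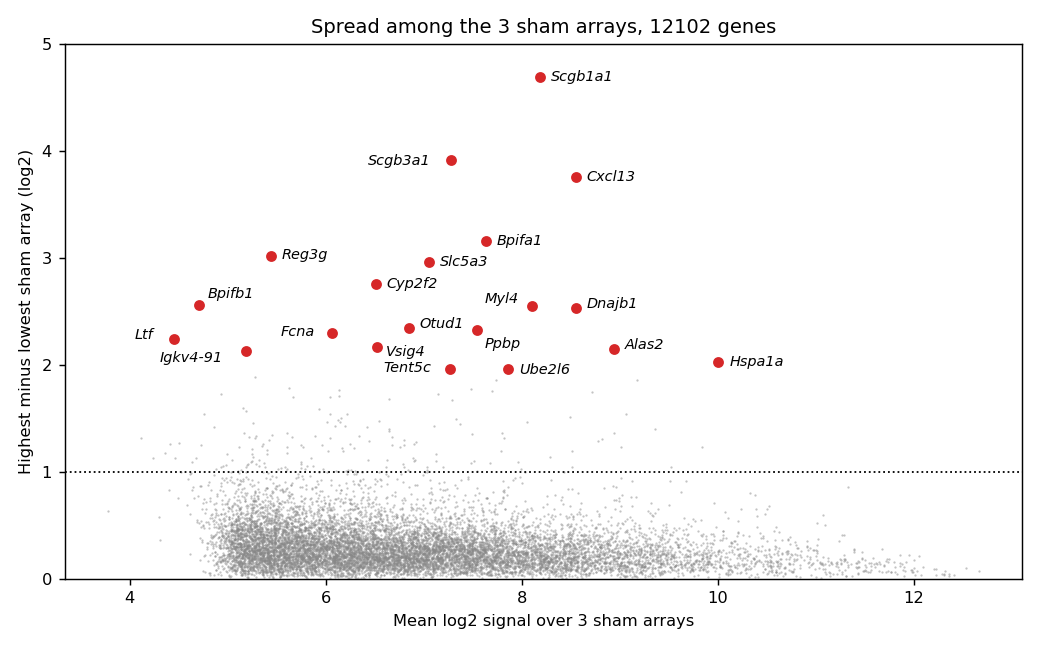
Each grey point is 1 of 12102 genes, with its mean log2 signal over the 3 sham arrays on the x axis and its range among them on the y axis; the dotted line is a range of 1, and the 20 genes of largest range are red and named. Ranges above 2 are few and run from Ltf, at percentile 27.5 of sham signal, to Hspa1a, at 97.8, and no gene of the top 1% is at or above 1.

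The gene that differed most was Scgb1a1, a secretoglobin of airway club cells, on chromosome 19 from 9083642 to 9087956 (GRCm38.p6). It read 7.95, 10.65 and 5.96, a range of 4.69. The 12 proton arrays had a lowest of 8.60, a median of 10.76 and a highest of 11.82. Day 1 replicate 2 was thus among the proton values and the other 2 sham arrays were below all of them. Scgb3a1, another secretoglobin, read 6.76, 9.49 and 5.58. Bpifa1, an airway surface protein, read 7.07, 9.50 and 6.34. Reg3g, an antimicrobial lectin, read 4.90, 7.22 and 4.20, Cyp2f2, a club cell cytochrome, 6.12, 8.08 and 5.33, and Bpifb1 4.19, 6.25 and 3.69. In all 6, day 1 replicate 2 was highest and day 3 lowest. The sham mean of Bpifb1, 4.71, lay below the receptor level, and Bpifb1 passed the filter only through the proton arrays.

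Because these genes are best known from airway, a list of 20 airway epithelium genes was read after their values had been seen, and its counts are a description with no test. Of 15 past the filter, 14 were highest in day 1 replicate 2 and 12 lowest at day 3, an array that held the lowest value for 32.8% of all genes. The 6 genes named above are among the 15, so part of these counts was known in advance. The mean over the list was 5.37, 6.32 and 4.97 in the 3 sham arrays and 5.36 to 7.45 in the proton arrays. The highest of the list, Cbr2, read 8.35, 9.32 and 7.81. A range of at least 1 was found in 9 of the 15, the 6 genes named above among them. Gabrp was also among the 9 and read 4.03, 5.23 and 3.97. Like Bpifb1, it passed the filter only through the proton arrays. Of the 20 genes, 13 had a sham mean above the receptor level. Foxj1 (cilia) read 5.65, 5.44 and 5.495, Cdh1 (epithelial junctions) 5.03, 5.38 and 4.91, and Epcam 5.03, 5.06 and 5.03. Their means of 5.53, 5.11 and 5.04 were within 1 log2 unit above the receptor level, and Scgb3a2 was below it at 3.82. Of a list of 10 alveolar epithelium genes, also read afterwards, none had a range of at least 1, and the surfactant gene Sftpc had 3.07. Only 4 of the 10 passed the filter and 4 lay above the receptor level, so most of this list was too low to be set against the airway list. The part of other tissue in these values was not tested.

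Some immune genes followed the same order of arrays. Cxcl13, a chemokine that attracts B cells, read 8.95, 10.23 and 6.48. Vsig4, a complement receptor of resident macrophages, read 6.72, 7.50 and 5.33, and the ficolin gene Fcna read 6.04, 7.22 and 4.92. Day 3 was lowest in each. A list of macrophage genes of the serous cavities, chosen after these values were seen, had means of 6.67, 7.21 and 5.67, and 6 of its 9 genes past the filter had a range of at least 1. It includes Cxcl13, Vsig4 and Fcna themselves, so part of this count was known in advance, and Gata6, which is also a cardiac factor. Across the macrophage and monocyte list, 18 of 22 genes were lowest at day 3, but 11 were highest in day 1 replicate 1 and 9 in day 1 replicate 2, with list means of 6.75, 6.74 and 6.28.

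Mesothelial markers moved with them. All 11 were highest in day 1 replicate 2 and all 11 lowest at day 3, and 8 had a range of at least 1. Their mean was 6.69, 7.13 and 5.95. In the proton arrays it ran from 6.02 to 8.18 with a median of 7.15, so the sham day 3 array was below every proton array. Lrrn4, a leucine-rich repeat gene of mesothelium, read 7.99, 8.38 and 7.01. Upk1b, a uroplakin, read 7.40, 8.08 and 6.64, and Aldh1a2, the retinoic acid synthase of the epicardium, read 6.57, 6.71 and 5.20. Endothelial markers were highest in day 1 replicate 2 in 18 of 20 genes, with means of 7.21, 7.60 and 7.29. Over all 138 markers of other cells past the filter, 97 were highest in day 1 replicate 2 and 73 lowest at day 3.

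Red cell and neutrophil genes set day 1 replicate 2 apart. Of 12 erythroid genes listed, 5 were measured and 3 passed the filter. Alas2, the first enzyme of haem synthesis in red cell precursors, read 8.09, 10.24 and 8.50. The proton arrays ran from 6.39 to 11.05. Slc4a1, the anion exchanger of red cells, read 5.69, 7.23 and 5.74, and Bpgm, which makes 2,3-bisphosphoglycerate in red cells, read 6.06, 7.46 and 6.40. Tent5c, a poly(A) polymerase, read 6.52, 8.49 and 6.79, and Ube2l6, an ISG15-conjugating enzyme, read 7.05, 9.02 and 7.51. All 5 were highest in day 1 replicate 2, and the other 2 arrays were closer to each other than to it. The 6 neutrophil markers past the filter were also highest there, among them Ltf (lactoferrin) with 3.98, 5.81 and 3.57. The sham mean of Ltf, 4.45, lay below the receptor level, and Ltf passed the filter only through the proton arrays. The platelet chemokine Ppbp had another order, reading 8.17, 8.39 and 6.07, and Pf4, platelet factor 4, read 7.42, 7.45 and 6.94. Igkv4-91, an immunoglobulin light chain segment, read 5.51, 6.09 and 3.96. Of 7 B and plasma cell genes past the filter, 6 were highest in day 1 replicate 2. The 5 T and NK cell genes past the filter went another way and were all highest at day 3. The mean over the 14 measured T and NK cell genes was 4.21, 4.33 and 4.48, in each array below the receptor level of 4.87. Since 4 of the 14 had a sham mean above that level, not all 5 past the filter did.

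Interferon-stimulated genes, a list read after the values of Ube2l6 had been seen, did not share a single order. Isg20 read 7.16, 8.83 and 7.08, and Rsad2 read 6.69, 8.46 and 7.31, both highest in day 1 replicate 2. Ifit1 read 6.25, 5.53 and 6.54 and was lowest there.

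**Figure D4:**
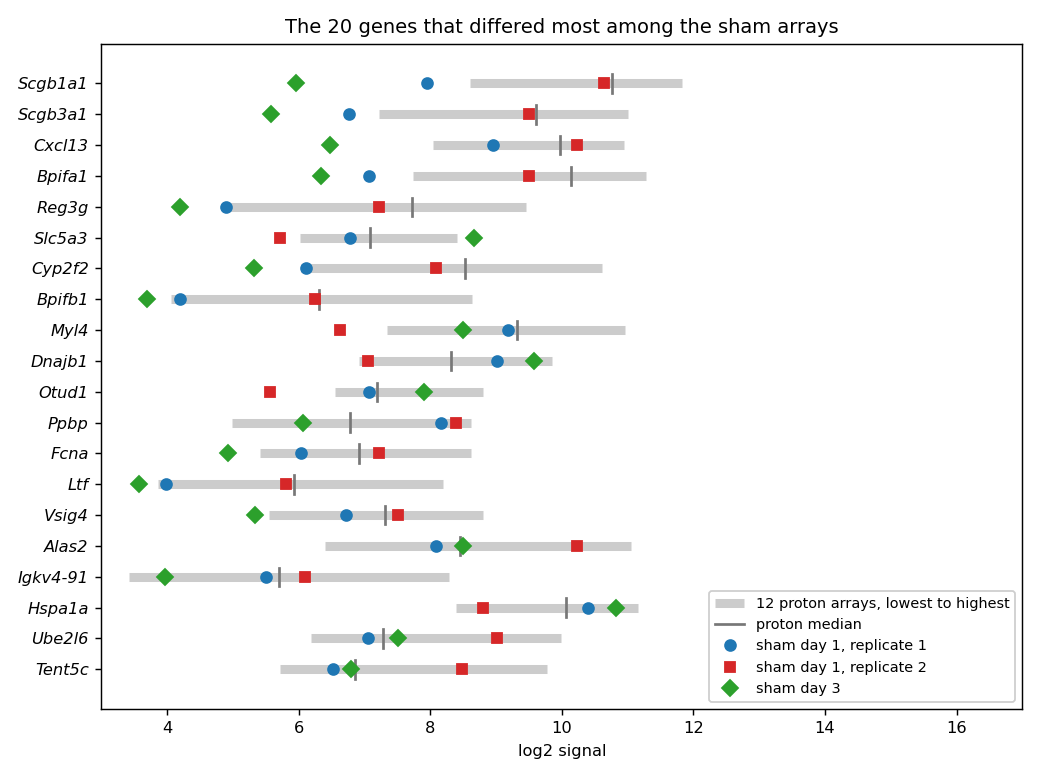
The x axis gives the log2 signal of the 20 genes of largest range in the sham arrays; symbols are the 3 sham arrays, the grey bar runs from the lowest to the highest of the 12 proton arrays and the tick is their median. For Scgb1a1 the sham arrays span 5.96 to 10.65, with day 1 replicate 2 inside the proton bar and the other 2 to its left, and for Slc5a3 the sham day 3 array lies to the right of the bar.

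Heat shock genes had the opposite order, lowest in day 1 replicate 2. These chaperones refold proteins and are induced by heat shock factor 1 under stress. Dnajb1, the inducible co-chaperone of HSP70, read 9.02, 7.05 and 9.58, against a lowest of 6.91, a median of 8.31 and a highest of 9.84 in the proton arrays. Hspa1a, the inducible HSP70, read 10.40, 8.80 and 10.82. Hsp90aa1, the inducible HSP90, read 9.91, 9.09 and 10.01, and Dnaja1, an HSP40, read 8.92, 8.26 and 9.63. Day 1 replicate 2 was lowest in each of the 4. In the list of 13, day 1 replicate 2 was lowest in 10 and day 3 highest in 10, where 31.3% of all genes were lowest in the former and 33.2% highest in the latter. Small heat shock proteins of muscle differed less: Hspb7 read 11.78, 11.78 and 11.72, and Hspb6 read 12.11, 12.02 and 12.13. The constitutive Hspa8 read 11.64, 11.50 and 11.64. The list mean was 10.13, 9.67 and 10.34 in sham and 9.75 to 10.51 in the proton arrays, so day 1 replicate 2 was below every proton array.

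Promoters of an inducible and of a small heat shock gene are printed because the list moved together across the sham arrays. The letters searched were GAANNTTC, the core of the heat shock element, which reads the same on both strands. No gene of the sarcomere or heat shock lists held both this motif and the CArG box. Each is the 150 bases before the start in RefSeq (GRCm38.p6), 5′ to 3′ on the gene's strand, with matches in capitals. Hspa1a is at chr17:34972157-34972306 on the minus strand, with a match 104 bases before the start. Hspb1 is at chr5:135887769-135887918 on the plus strand, with matches 117 and 97 bases before.
Hspa1a: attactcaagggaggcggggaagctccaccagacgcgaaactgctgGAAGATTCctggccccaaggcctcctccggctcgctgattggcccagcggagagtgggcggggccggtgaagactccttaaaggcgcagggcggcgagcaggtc
Hspb1: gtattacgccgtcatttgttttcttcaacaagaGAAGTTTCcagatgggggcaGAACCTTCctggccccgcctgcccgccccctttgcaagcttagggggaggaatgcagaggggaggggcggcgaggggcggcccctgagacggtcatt
The letters were found in 6 of the 11 heat shock genes with a promoter in the table (54.5%: Dnaja1, Hspa1a, Hspb1, Hspb6, Hspd1 and Hspe1) and in 4.63% of all 27025 genes. Hspb1 itself read 11.03, 10.74 and 11.26, with the same order of arrays as Hspa1a.

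Immediate early genes, transcription factors and regulators induced within minutes of a stimulus, were highest at day 3. Of 25, 22 were highest in that array and 21 lowest in day 1 replicate 2. Atf3, a stress-induced factor, read 8.94, 8.36 and 10.22. Fos read 7.97, 7.36 and 8.83, and Jun 9.86, 9.22 and 10.45, the partners of the AP-1 factor. Btg2, an antiproliferative gene, read 8.50, 8.32 and 9.63, and Egr2, a zinc finger factor, 5.18, 4.89 and 6.19. The 3 arrays were in the same order in all 5. The list mean was 7.37, 7.10 and 7.85. In the proton arrays it ran from 7.35 to 8.02, so day 1 replicate 2 was below them all and day 3 within them. Otud1, a deubiquitinase, was not in a list and read 7.06, 5.57 and 7.91.

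Slc5a3, the sodium-coupled myo-inositol carrier that cells induce under high osmolarity, read 6.78, 5.71 and 8.67. No proton array reached the sham day 3 value, the highest being 8.40. Of the osmotic stress genes read after this was seen, no other had a range of at least 1. Nfat5, the factor that induces them, read 6.60, 6.75 and 6.88, and the taurine carrier Slc6a6 read 8.35, 8.79 and 8.05.

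Atrial light chains also separated the arrays. Myl4 read 9.17, 6.63 and 8.50, and Myl7, whose promoter is printed above, read 7.20, 5.72 and 6.72. Sln, an atrial regulator of the calcium pump, read 4.76, 2.78 and 4.33, all below the receptor level. All 3 were lowest in day 1 replicate 2, and its Myl4 and Myl7 signals were below those of every proton array, whose lowest were 7.33 and 6.21. Nppa did not share this order, and Bmp10, a growth factor of atrial myocytes, read 5.10, 5.30 and 5.56. Of the 10 genes of the hormone, atrial and foetal list past the filter, 5 were highest in day 1 replicate 2 and 3 lowest there. Of all genes past the filter, 41.9% were highest and 31.3% lowest in that array. The amount of atrial tissue was not tested.

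The respiratory lists differed by little in size. The mean over complexes III to V was 11.30, 11.24 and 11.31. Of its 33 genes 26 were lowest in day 1 replicate 2, and of 35 complex I genes 22, where 31.3% of all genes were lowest in that array. Over all genes past the filter, 0 of 122 metabolism genes reached a range of 1.

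**Figure D5:**
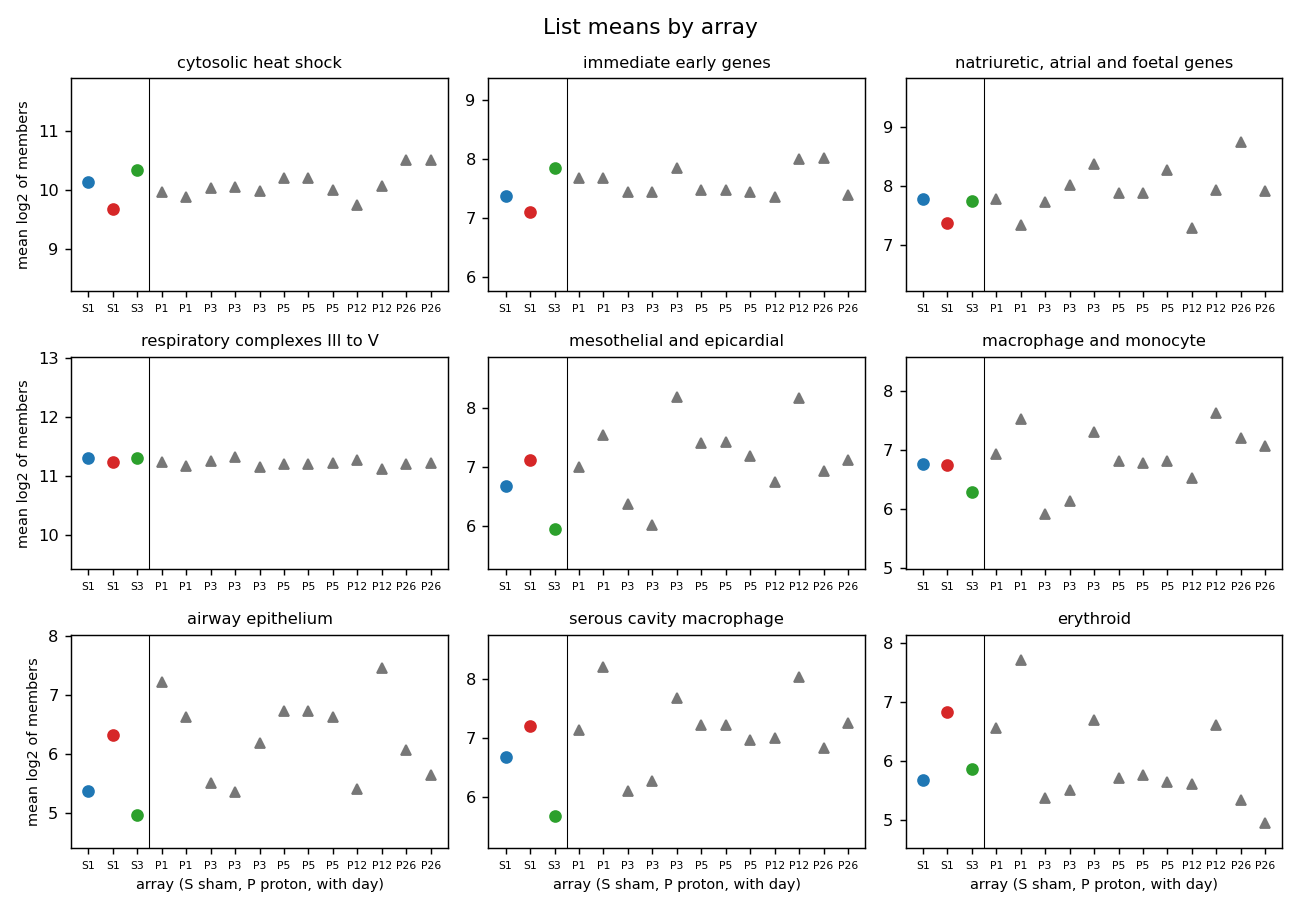
Each panel gives the mean log2 signal of a gene list (y axis, a window of equal height in every panel) in each of the 15 arrays (x axis, S for sham and P for proton with the day); blue, red and green circles are sham day 1 replicate 1, day 1 replicate 2 and day 3, and grey triangles are proton arrays. The red array is the lowest sham array for heat shock and immediate early genes and the highest for mesothelial, airway, serous cavity macrophage and erythroid genes, and the green one is lowest for the mesothelial, macrophage and airway panels.

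The difference between sham day 3 and sham day 1 was fitted with limma in a model of 14 samples in 7 groups, in which the lone day 3 array is assumed to vary like the other groups. No gene of 12102 passed an adjusted p of 0.05 in either direction (0%). At an unadjusted p under 0.05 there were 494 genes, where a share of 0.05 of the genes tested would be 605. A fit of the 3 sham arrays by themselves, which takes the spread from the 2 day 1 arrays, called 169 genes, 50 of them higher at day 3. Without day 1 replicate 1, 1 gene was called. The 5 genes of smallest p had an adjusted p of 0.393 each. Bnip3, a mitochondrial receptor of mitophagy and cell death, read 9.93, 9.83 and 9.12, a difference of -0.77 (SE 0.131). Its other probe set read 9.15, 9.13 and 8.40, in the same direction. Malat1, a nuclear long non-coding RNA, read 10.29, 10.27 and 10.88, a difference of 0.59 (SE 0.103). A330023F24Rik, a non-coding RNA gene, read 6.31, 6.13 and 7.51. Igsf1, an immunoglobulin superfamily membrane protein, read 5.78, 5.43 and 6.68, with the proton arrays between 5.40 and 5.97. Gp9, a platelet glycoprotein, read 6.02, 6.16 and 5.06.

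By list, day 3 lay above day 1 in 24 of 25 immediate early genes (median difference 0.66) and 12 of 13 heat shock genes (0.28), against 50.1% of all genes and a median of 0.00. It lay above in 0 of 11 mesothelial genes (-0.96) and 2 of 22 macrophage genes (-0.55). No member of any list passed the test.

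Set against the proton arrays, few single genes of the sham baseline passed the test. The mean of the 5 proton days minus the 3 sham arrays was fitted with limma in 6 groups. Sham arrays exist only for days 1 and 3, so exposure and day cannot be fully told apart in this difference. Of 12102 genes, 3 passed an adjusted p of 0.05, all higher in proton (0.0248%), none lower (0%). At an unadjusted p under 0.05 there were 1458, where a share of 0.05 of the genes tested would be 605. Scarna13, a small Cajal body RNA that guides modification of spliceosomal RNA (chromosome 12, 105031075 to 105031349), read 7.59, 8.27 and 7.54 in sham and 8.24 to 9.77 in proton arrays, 11 of 12 above the highest sham value. Its difference was 1.18 (SE 0.138, adjusted p = 0.0174). Pde7a, a cAMP phosphodiesterase (chromosome 3, 19223108 to 19311322), read 7.80, 7.77 and 7.71 in sham and 7.85 to 8.73 in proton, with 12 of 12 above all sham, a difference of 0.52 (SE 0.0631, adjusted p = 0.0174). Snora16a, a small nucleolar RNA, read 6.80, 6.63 and 6.24 in sham and 7.00 to 8.25 in proton, a difference of 0.96 (SE 0.133, adjusted p = 0.0411). The sham values of Pde7a were thus the closest together of the 3. None of the 3 passed without sham day 1 replicate 1, without sham day 3, or without proton day 1 replicate 2, day 3 replicate 1 or day 26 replicate 2, and 1 gene passed without sham day 1 replicate 2 or proton day 26 replicate 1. No gene passed against sham day 1 alone.

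The next genes by p were Car14, a membrane carbonic anhydrase, with 9.90, 9.89 and 10.03 in sham and 9.38 to 9.81 in proton (adjusted p = 0.0725), and Igha, the constant region of the IgA heavy chain, with 3.71, 3.50 and 4.14 in sham and 4.53 to 5.92 in proton (adjusted p = 0.0905). The sham values of Igha were all below the receptor level, and it passed the filter on signal only through the proton arrays. Its other probe set read 3.69, 4.67 and 4.03 in sham. In the probe sets used, the sham and proton values of both did not overlap. Over all genes, every proton array was above every sham array in 98 (0.81%) and below in 108 (0.892%). Among them was Hrc, a histidine-rich calcium-binding protein of the reticulum, with 9.64, 9.77 and 9.78 in sham and 9.84 to 10.07 in proton, named here after its values were seen. It did not pass the test.

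By list, the fitted difference was above 0, higher in proton, in 17 of 17 fibroblast genes (median 0.42), 11 of 11 mesothelial genes (0.60) and 21 of 22 macrophage genes (0.38), against 53.3% of all genes and a median of 0.01. It was above 0 in 0 of 8 thin filament genes (-0.08) and 3 of 33 genes of complexes III to V (-0.08). No member of these lists passed the test. The arrays overlapped in the list means. For the fibroblast list and for the macrophage list, 9 of 12 proton arrays lay above all sham arrays and 2 below all. For mesothelial genes 6 lay above all and 0 below. For thin filament genes 0 lay above and 7 below, and for complexes III to V 1 above and 9 below. The spread of the mesothelial and macrophage lists among the sham arrays is given above, and its part in these differences was not tested.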

How the data were processed

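The platform was the Affymetrix Mouse Gene 1.0 ST array, with 15 RNA preparations. The authors deposited 1 table of log2 values for 34760 probe sets, from 0.123 to 12.9. MAS5 is named, with no version, per the submitters' processing notes. Background correction, normalization and the log base are not given in the sources used here, and log2 was read from the range of the values. The 95th percentile of an array was 9.11 at the lowest and 9.16 at the highest. Values were used as deposited.

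Of the probe sets, 21640 carried 1 symbol in the platform annotation, 1321 several and 11799 none. Of the single-symbol probe sets, 21553 matched RefSeq (GRCm38.p6). Of the 19937 genes, 954 had several probe sets. Genes with a mean over all arrays above 5.00 (12102) entered the fits. Days were taken from the titles, since the design text names others. Proton day 5 replicates 1 and 2 differed by less than any other pair (Spearman 0.998, SD of the difference 0.0768) and were counted as 1 sample. Fits used limma 3.58.1 in R 4.3.3 (lmFit, eBayes with trend, Benjamini-Hochberg over all genes, 2-sided) and were tested on simulated data.

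Genes named are the 30 highest, the highest, lowest and most variable of 39 lists, 22 pairs, the 20 of largest range and the genes passing a test or of smallest p. The arrays, lists and rule were chosen with earlier results of these data known, and 5 further lists after the values were seen. Alternatives were other normalizations, filters, probe set choices, variance models, array weights, the replicate block and leaving out samples.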

Additional observations from a re-analysis of the deposited data

How the results depend on the processing

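For sham day 3 minus day 1, no gene passed under any alternative other than the fit of the 3 sham arrays (169, with 846 at an unadjusted p under 0.05), and leaving out samples gave 0 to 1. For proton minus sham, 3 genes became 1 with equal array medians, 10 (8 higher) with all 15 arrays as separate samples, 24 (19 higher) with array weights, 0 with sham day 1 only (856 unadjusted), and 0 to 3 on leaving out each sample. With the replicate number as a block, which leaves out sham day 3, 0 genes passed (646 unadjusted). Over samples of the same number, deviations from the group means had a median correlation of -0.0832 (26 pairs, -0.722 to 0.457, 10 above 0.1). The groups are small and their deviations depend on each other, so this cannot settle whether the number pairs samples. The count of 178 genes with a range of at least 1 became 788 with no filter, 78 with a filter at the 75th percentile, 1565 at a range of 0.5, 18 at 2, and 48 to 152 without each sham array. The sarcomere median percentile of 99.37 became 99.44 with the mean of probe sets, 98.97 among filtered genes and 99.33 to 99.42 without each sham array. That of other heart cells, 57.08, became 43.69 among filtered genes, 54.35 to 57.82 without each sham array, and 54.8 without shared markers, an alternative chosen after seeing the data. No direction reversed in these results. With 3 arrays, and 1 of them the whole of a day, small differences cannot be seen, and signals near the receptor level carry little information.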
